A study of Mus musculus with 24 samples.

Results

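The genes described here are 29 mouse genes of cholesterol synthesis, sterol control and sterol transport, measured in liver. They were taken as a list of named members with a mean of at least 1 CPM, a count scaled to the size of its library, over 24 libraries. All 29 met that limit, the lowest being Ggps1 at 9.79 CPM and the highest Sc5d at 719 CPM, out of 54532 genes in the deposited count table. All 29 also passed the filter on low counts that left 15090 genes for testing. The list holds 20 enzymes of synthesis, 4 genes of sterol sensing and control, and 5 genes of sterol transport or regulated alongside the pathway. Of the word uptake in the list's name, the gene measured here is Mylip, whose product marks lipoprotein receptors for degradation.

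The libraries came from livers of wild-type mice (Hlf+/+/Dbp+/+/Tef+/+) and of mice lacking all 3 PAR bZip transcription factors (Hlf-/-/Dbp-/-/Tef-/-), clock-driven regulators of liver metabolism. Both genotypes were 12-16 weeks old and fed ad libitum, and were sampled every 4 h from ZT04 to ZT24, where ZT is zeitgeber time, the hour after lights on. Each genotype and time had 2 libraries, one carrying the letter I and the other the letter P in the labels, called set I and set P below. The labels state neither the meaning of the letters nor the sex of the mice nor the exons deleted. They also leave unsaid whether each library is a different mouse, and p-values here measure only how far these samples spread, which may be technical variation.

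Cells make cholesterol from acetyl-CoA through mevalonate, farnesyl diphosphate, squalene and lanosterol. When membrane sterol is low, the escort protein Scap carries the membrane-bound precursor of the transcription factor SREBP-2, the product of Srebf2, to the Golgi, where it is cleaved and released to switch on the synthesis genes. Insig proteins hold Scap back when sterol is plentiful. Cholesterol taken up in lipoproteins leaves the lysosome through Npc2 and Npc1. In rodent liver the synthesis pathway is known to vary with feeding and with the time of day.

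Total counts ran from 14613001 to 19288322 per library. Dbp was at 0 to 0.114 CPM in the knockout libraries and at 0.279 to 56.8 CPM in the wild type, and Hlf was at 0.112 to 3.34 CPM against 46.9 to 95.6 CPM. Tef was at 3.54 to 30.1 CPM against 42.4 to 330.2 CPM. For none of the 3 deleted genes did the ranges of the genotypes overlap. Wild-type set I stood apart from the other libraries. The r across genes between transcript GC content and the log2 deviation of a library from the median one averaged 0.437 there (0.211 to 0.648 over 6 libraries), against means of −0.0599 in wild-type set P, −0.0514 in knockout set I and −0.228 in knockout set P. The highest values were at ZT20, ZT16 and ZT04. Results are therefore given over both sets, within each set and without the wild-type set I libraries. The hepatocyte markers Alb, Ttr, Apoa1, Fgb and Tat summed to 67385 to 94155 CPM in the wild type and 42369 to 64304 CPM in the knockout. The labelled tissue thus showed its defining markers in all 24 libraries. Averaged over times, 4 of those 5 markers fell in the knockout (21.1% of all genes) and 3 of 5 Kupffer cell markers rose (12.1%). Kupffer sums overlapped between genotypes, at 281 to 612 and 317 to 531 CPM in wild-type sets I and P. In the knockout sets they were at 405 to 490 and 336 to 559 CPM. Sinusoidal endothelium and blood had 1 rise each, stellate cells and cholangiocytes 1 rise and 1 fall each, and lymphocytes 1 rise and 2 falls. Lymphocyte markers summed to at most 8.87 CPM, adipocyte markers to at most 10.5 CPM and pancreas markers to at most 1.95 CPM, with 2 of the 5 pancreas markers at 0. The part of cell composition in the results below was not tested, and fewer cells of a type cannot be told apart from less RNA per cell.

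Promoters are shown first because the members are known as a group controlled through short promoter elements. RefSeq windows on GRCm38.p6, from 250 bases before to 50 after a gene's start, were found for 24 of the 29 members (29 windows, as 4 genes had several). The letters CCAAT, the box bound by the SREBP partner NF-Y, stood on either strand in 22 of the 24 genes, against 41.1% of the 27025 genes with a window. The sterol element core TCACNCCA was in 3 of the 24 genes (Hmgcs1, Msmo1 and Srebf2) against 4.97% of genes, and CACNCCAC, which can overlap it by all but 1 of its letters, was in 3 (Acat2, Hmgcs1 and Insig1) against 7.12%. The E-box CACGTG was in 6 (Dhcr7, Hsd17b7, Insig1, Rdh11, Sc5d and Scap) against 8.09%. The PAR bZip sites TTATGTAA and TTACGTAA were in none of the 24, against 1.11% and 0.126% of genes, which says only that these letters are not in these windows. A match is a description of letters and not a measured binding site.

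The stretches upstream of the start of 5 members are given 5′ to 3′ on the gene's strand, with matches in capitals. Each begins 250 bases before the RefSeq start, from which distances are counted, and stops earlier where GENCODE M21 annotates the gene earlier. Those of Srebf2 and Insig1 are thus 162 and 201 bases long and end short of the RefSeq start. Hmgcs1 and Srebf2 are among the members with the smallest p between genotypes averaged over times, and Sc5d rose. Nsdhl and Insig1 are among the members with the smallest p for a wild-type rhythm. Each of the 5 holds a CCAAT box, printed as CCAAT or as its reverse complement ATTGG. Hmgcs1 (chr13:119690101-119690350, plus strand) has CCAAT boxes beginning 237, 176 and 45 bases before the start and the overlapping sterol element letters 137 and 136 bases before it. Srebf2 (chr15:82147019-82147180, plus strand) has the sterol element letters at 162 and a CCAAT box at 135 bases. Sc5d (chr9:42264301-42264550, minus strand) has an E-box at 98 and a CCAAT box at 24 bases. Nsdhl (chrX:72918271-72918520, plus strand) has CCAAT boxes at 109 and 20 bases. Insig1 (chr5:28071162-28071362, plus strand) has a CCAAT box at 216 and an E-box at 101 bases, and its sterol element letters lie beyond the stretch printed.
Hmgcs1: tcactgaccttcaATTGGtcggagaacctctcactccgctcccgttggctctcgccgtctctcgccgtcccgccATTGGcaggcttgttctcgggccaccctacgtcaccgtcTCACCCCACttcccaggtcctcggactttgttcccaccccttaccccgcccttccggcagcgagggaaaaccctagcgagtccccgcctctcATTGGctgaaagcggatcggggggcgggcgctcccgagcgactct
Srebf2: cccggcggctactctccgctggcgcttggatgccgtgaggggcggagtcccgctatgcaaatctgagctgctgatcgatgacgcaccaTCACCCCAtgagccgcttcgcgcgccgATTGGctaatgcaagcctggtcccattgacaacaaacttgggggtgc
Sc5d: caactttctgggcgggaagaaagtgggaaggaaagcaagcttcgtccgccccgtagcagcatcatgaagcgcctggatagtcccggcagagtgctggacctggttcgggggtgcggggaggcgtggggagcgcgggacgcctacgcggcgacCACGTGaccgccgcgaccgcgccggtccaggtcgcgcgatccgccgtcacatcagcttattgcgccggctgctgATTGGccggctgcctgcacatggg
Nsdhl: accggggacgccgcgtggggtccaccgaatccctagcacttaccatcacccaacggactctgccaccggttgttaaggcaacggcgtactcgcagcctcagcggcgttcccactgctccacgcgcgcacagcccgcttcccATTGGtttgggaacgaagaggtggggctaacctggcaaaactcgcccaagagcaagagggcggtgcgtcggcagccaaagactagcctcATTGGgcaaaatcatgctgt
Insig1: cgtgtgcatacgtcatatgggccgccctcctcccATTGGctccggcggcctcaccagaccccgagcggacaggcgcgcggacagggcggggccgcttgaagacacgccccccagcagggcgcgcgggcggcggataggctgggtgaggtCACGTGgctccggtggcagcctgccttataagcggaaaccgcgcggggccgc

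Averaged over the 6 times, 9 of the 29 genes differed between knockout and wild type, 5 higher and 4 lower (edgeR quasi-likelihood test, Benjamini-Hochberg adjusted p under 0.05). Of all genes tested, 33.2% were called in this comparison, 12.1% higher and 21.1% lower, so the share among the members was close to the background. The genes that rose were Hmgcs1, Ggps1, Cyp51, Sc5d and Stard4, 4 synthesis enzymes and a sterol carrier. The genes that fell were Npc1, Scap, Srebf2 and Ebp, a lysosomal exporter, the sterol sensor, the SREBP-2 gene and a sterol isomerase. The median log2 difference of the 29 genes was 0.14, against −0.02 over all genes tested. Positive differences were found for 20 of the 29, against 48.4% of all genes. With the letter as a replicate block, a pairing accepted only after its calls were known, 8 rose and 5 fell, against a background of 52.3%, Idi1, Lbr and Rdh11 joining the rises and Npc2 the falls. Under 10 other settings of the averaged comparison, Hmgcs1, Stard4 and Npc1 were called in 10, Scap in 9, Srebf2 in 6, Ggps1 and Cyp51 in 5, and Sc5d and Ebp in 4. When each library was left out in turn, Hmgcs1, Cyp51, Sc5d, Npc1, Scap and Srebf2 were called in 24 of 24 fits and Ebp in 13, and without wild-type set P at ZT20 there were 11 rises and 7 falls, while the calls over all genes also went up, to 30.4% higher and 28.1% lower.

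Hmgcs1, which makes the HMG-CoA that enters the mevalonate pathway, changed most. From ZT04 to ZT24 it was at 472, 403, 308, 132, 413 and 369 CPM in wild-type set P and at 1002, 667, 734, 877, 997 and 1376 CPM in knockout set P. In wild-type set I it was at 137, 395, 332, 125, 54.8 and 376 CPM, and in knockout set I at 1295, 327, 439, 222, 1017 and 599 CPM. All 6 knockout libraries of set P lay above all 6 wild-type libraries of that set, while in set I the knockout was lower at ZT08 and the ranges overlapped. Over 12 libraries each, the wild type averaged 293 ± 141 (SD) and the knockout 796 ± 364 CPM. The log2 difference was 1.45 (SE 0.32, adjusted p = 0.00438, edgeR), with 1.43 in set I and 1.46 in set P, and the difference between the sets was 0.04 (SE 0.56, edgeR adjusted p = 0.969). The set I value was less steady than that of set P. It became 0.82 once each library's trend with GC content was removed. With set I fitted alone it was 1.41 and not called (edgeR adjusted p = 0.0979). Under 6 other settings the set P value ran from 1.40 to 1.47 and was called in 6. Hmgcs1 was higher in the knockout at 5 of 6 times in set I and at 6 of 6 in set P. An opposite-strand gene, Gm48342, shares 557 exon bases with Hmgcs1, and how such reads were counted is not given in the sources used here.

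The remaining rises were smaller and less steady. Cyp51, the lanosterol demethylase, went from a wild-type average of 274 ± 50.8 CPM to 383 ± 117 CPM (SD, n = 12 each), a log2 rise of 0.46 (SE 0.13, edgeR adjusted p = 0.0186). It was higher at 6 of 6 times in set P and at 4 of 6 in set I. Sc5d, the sterol desaturase of the last steps, rose by 0.39 (SE 0.11, edgeR adjusted p = 0.0178), from 619 ± 117 to 820.0 ± 199 CPM, but its averaged difference became −0.037 once each library's trend with GC content was removed. Stard4, a cytosolic sterol carrier, rose by 0.75 (SE 0.27, edgeR adjusted p = 0.046), and Ggps1, which diverts farnesyl diphosphate to geranylgeranyl diphosphate, by 0.61 (SE 0.21, edgeR adjusted p = 0.0386). Without the 6 wild-type set I libraries the difference of Ggps1 was 0.22 (edgeR adjusted p = 0.0801). Both genes were lowest in wild-type set I, where Stard4 was at 37.2 to 147 CPM (median 88.2) and Ggps1 at 2.90 to 8.93 CPM (median 5.38). In wild-type set P they were at 152 to 223 CPM (median 195) and 9.54 to 10.9 CPM (median 10.1). Neither was called within set P in the fit that held both sets. With set P fitted alone, Stard4 was called at 0.40 (SE 0.06, edgeR adjusted p = 0.00125). Ggps1 was not called there, at 0.14 (SE 0.07, edgeR adjusted p = 0.227). In the averaged comparison both calls were unsteady. Stard4 was called in 4 of 24 fits that left out 1 library and Ggps1 in 6 of 24.

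Npc1, the membrane protein that exports cholesterol from lysosomes, was the member with the smallest p. It was at 158, 189, 223, 156, 137 and 167 CPM from ZT04 to ZT24 in wild-type set P and at 142, 169, 135, 97.0, 107 and 93.8 CPM in knockout set P. In wild-type set I it was at 255, 286, 294, 189.6, 170.1 and 141 CPM, and in knockout set I at 93.8, 194, 170.3, 88.9, 109 and 110.0 CPM. The knockout was lower at 6 of 6 times in each set, although the ranges over the day overlapped in both sets. Npc1 fell by 0.66 on the log2 scale (SE 0.11, edgeR adjusted p = 0.000635), from 197 ± 54.8 to 126 ± 35.6 CPM (SD, n = 12 each). It was the only member called lower in both sets, at −0.81 in set I and −0.48 in set P. The gene Rmc1 on the opposite strand shares 511 exon bases with it.

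Scap, the sterol sensor that escorts SREBP precursors, fell by 0.42 on the log2 scale (SE 0.10, edgeR adjusted p = 0.00924). It ran from 124 to 197 CPM (median 159) in wild-type set I and from 95.3 to 135 CPM (median 117) in wild-type set P. Its knockout libraries ran from 82.4 to 136 CPM (median 102) in set I and from 80.7 to 128 CPM (median 98.8) in set P, so the ranges of set P overlapped over most of their length. Srebf2, the SREBP-2 gene, fell by 0.38 on the log2 scale (SE 0.11, edgeR adjusted p = 0.0165). Its wild-type libraries ran from 97.4 to 146 CPM (median 122) in set I and from 81.4 to 99.1 CPM (median 86.9) in set P, and its knockout libraries from 62.7 to 92.2 CPM (median 77.9) and from 68.5 to 91.9 CPM (median 83.9). Within set I the knockout libraries of Srebf2 lay below all wild-type libraries, and within set P they did not. Ebp, which shifts a double bond within the sterol ring, fell by 0.28 (SE 0.09, edgeR adjusted p = 0.0333), with means of 299 ± 85.1 CPM in wild-type set I, 228 ± 25.0 in wild-type set P, 209 ± 29.7 in knockout set I and 219 ± 16.4 in knockout set P (SD, n = 6 each). None of these 3 genes was called within set P, where the log2 differences were −0.21 for Scap, −0.10 for Srebf2 and −0.06 for Ebp. Without the 6 wild-type set I libraries the averaged comparison called 3 members higher, Hmgcs1 (1.21), Lss (0.52) and Stard4 (0.29), and 1 lower, Npc1 (−0.47), against 9.91% and 8.86% of all genes.

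**Figure D1:**
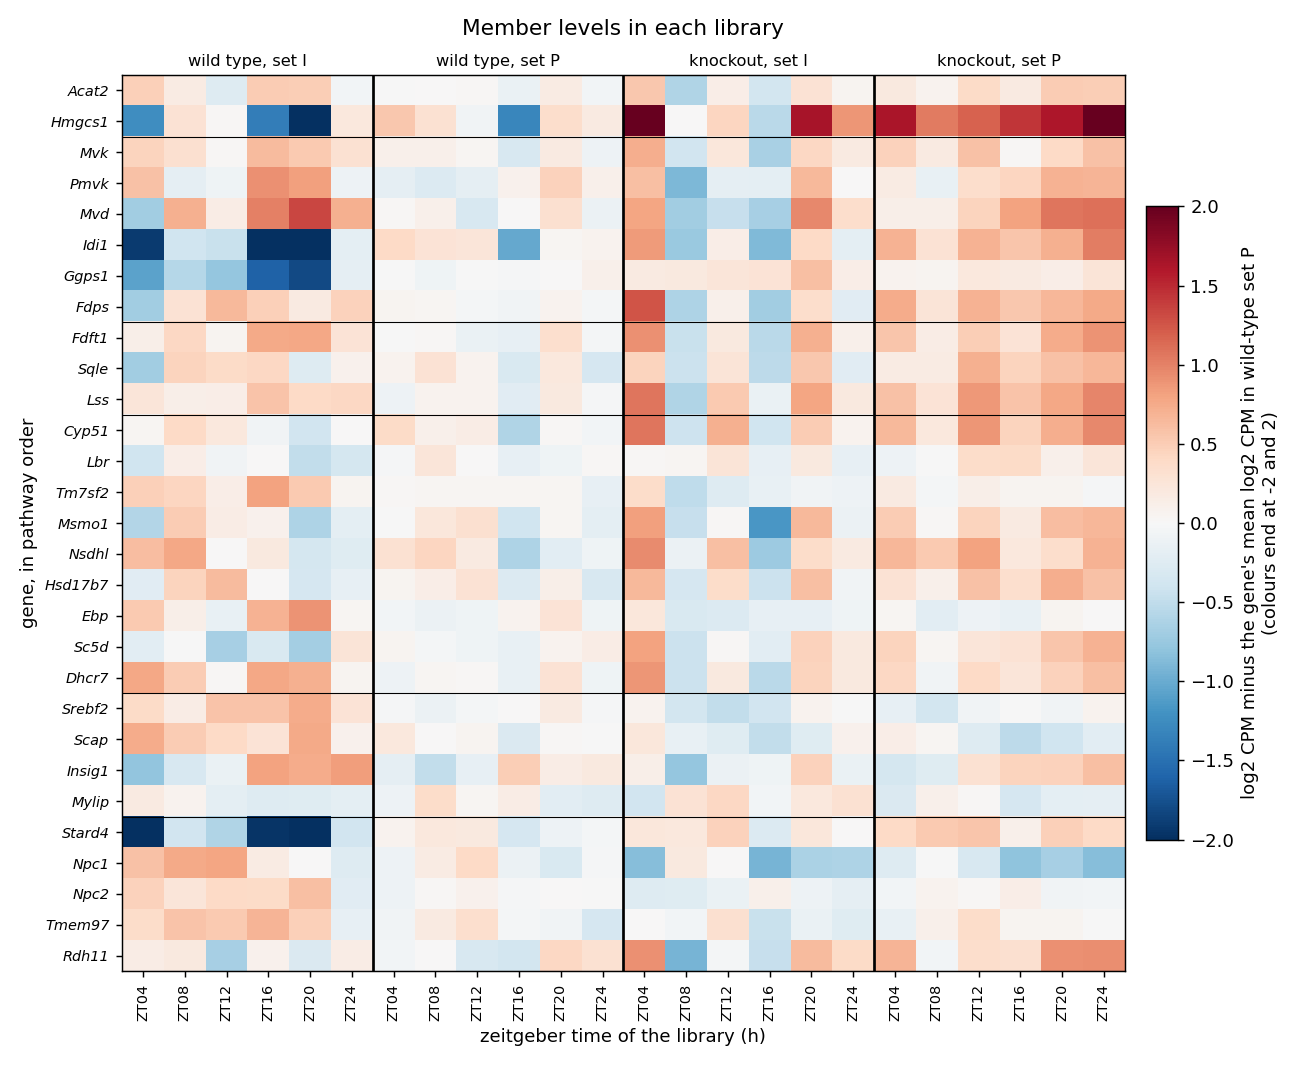
Level of each of the 29 genes (rows, in pathway order) in each of the 24 libraries (columns, by genotype, set and zeitgeber time), as log2 CPM minus the gene's mean in wild-type set P. Most enzymes are higher than wild-type set P through knockout set P, and in knockout set I they are high at ZT04 and low at ZT08 and ZT16, while Idi1, Ggps1 and Stard4 are low in the ZT04, ZT16 and ZT20 libraries of wild-type set I.

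The sets gave different pictures of the pathway. In set P the knockout level was higher for 19 of the 20 enzymes of synthesis, the exception being Ebp, and in set I for 10 of the 20. The median log2 difference of all 29 genes was 0.37 in set P and −0.19 in set I, against 0.01 and −0.06 over all genes tested. Under each of the 6 other settings run for set P, 19 or 20 of the 20 enzymes were positive. In set P, 4 members rose (Hmgcs1, Fdft1, Lss and Cyp51) and Npc1 fell, against a background of 6.49% of genes called, 2.9% higher and 3.59% lower. In set I, 6 rose (Hmgcs1, Idi1, Ggps1, Sc5d, Mylip and Stard4) and 7 fell (Tm7sf2, Ebp, Srebf2, Scap, Npc1, Npc2 and Tmem97), against a background of 63.4%, 30% higher and 33.4% lower.

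Of the 4 rises in set P, 3 were enzymes of the steps from farnesyl diphosphate through squalene to lanosterol and its demethylation. Fdft1, squalene synthase, rose by 0.53 (SE 0.14, edgeR adjusted p = 0.0432), from 174 ± 22.8 to 252 ± 49.2 CPM (SD, n = 6 each). Lss, lanosterol synthase, rose by 0.69 (SE 0.16, edgeR adjusted p = 0.0159), its wild-type libraries lying at 108 to 144 CPM and its knockout libraries at 152 to 248 CPM without overlap. Cyp51, the next step, rose by 0.66 (SE 0.16, edgeR adjusted p = 0.0252). Fdps, farnesyl diphosphate synthase, was also free of overlap, at 16.9 to 18.8 CPM against 21.2 to 30.1 CPM, but did not pass the test at 0.62 (SE 0.21, edgeR adjusted p = 0.0995). Sqle, squalene epoxidase, had a difference of 0.45 (SE 0.19, edgeR adjusted p = 0.205). These tests come from the fit that held both sets. With set P fitted alone, Fdps was called at 0.60 (SE 0.08, edgeR adjusted p = 0.000791) and Sqle at 0.45 (SE 0.13, edgeR adjusted p = 0.0432). That fit called 17 members higher, against 6.71% of all genes. Lss, Fdft1 and Fdps share 381, 774 and 1124 exon bases with other genes, for Fdps on the same strand (Gm43738), so that their counts may be split between genes. The calls within set P changed with single libraries. With each library left out in turn Lss was called in 19 of 24 fits, Cyp51 in 15, Hmgcs1 in 11, Fdft1 in 7 and Npc1 in 16, and none of the rises without knockout set P at ZT08, ZT16 or ZT24 or wild-type set P at ZT16 or ZT24.

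Comparing the genotypes at each time within set P, 14 of the 29 genes were higher in the knockout at all 6 times, against 10.7% of all genes. These were Acat2, Hmgcs1, Mvk, Pmvk, Mvd, Idi1, Ggps1, Fdps, Fdft1, Lss, Cyp51, Nsdhl, Sc5d and Stard4, which takes in both enzymes of entry and all 6 enzymes from mevalonate to the prenyl diphosphates. In set I 2 genes were higher at all 6 times, Ggps1 and Stard4, against 18.1% of all genes. Npc1 was the 1 gene lower at all 6 times in set P, against 8.42%, and in set I 6 were (Tm7sf2, Ebp, Srebf2, Scap, Npc1 and Tmem97), against 18.6%. In set P all 6 knockout libraries exceeded all 6 wild-type libraries for Hmgcs1, Fdps and Lss, against 2.82% of all genes, and for no member were they all lower, against 2.4%. In set I the knockout libraries were all higher for Ggps1 and Stard4, against 9.14% of all genes, and all lower for Srebf2, against 7.26%. Over both sets no member had all 12 knockout libraries above or below all 12 wild-type libraries, against 0.596% and 0.921% of all genes.

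**Figure D2:**
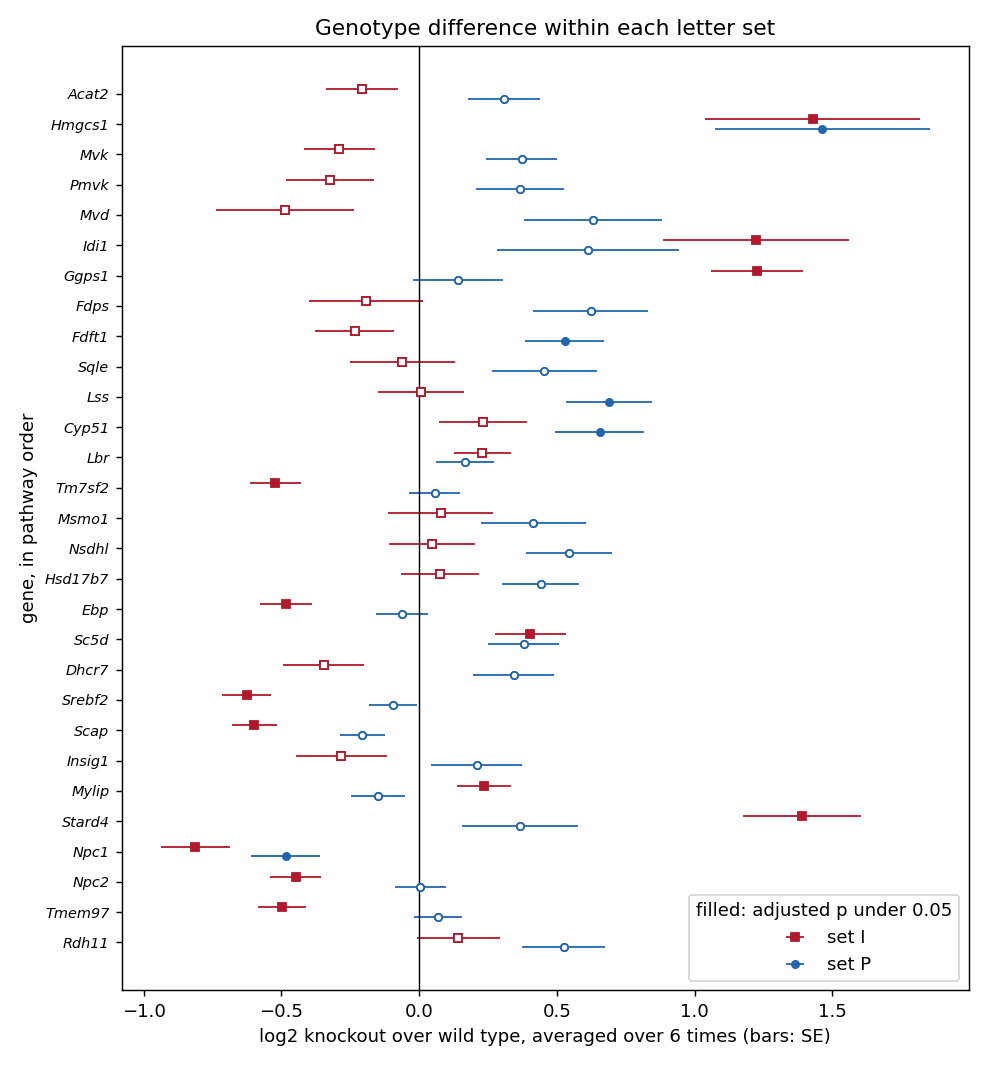
Log2 knockout over wild type averaged over 6 times for each gene (rows, in pathway order) within set I (squares) and set P (circles), with bars of 1 SE and filled symbols for an adjusted p under 0.05. In set P 24 of 29 genes lie right of 0 and in set I 13 of 29, and Hmgcs1 and Npc1 are filled in both.

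The difference between the sets was itself tested, as the change of the genotype effect with the letter. It was called for 15 of the 29 genes, against 29% of all genes, with 12 more positive in set P (14.2% of all genes) and 3 more positive in set I (14.8%). The smallest p belonged to Ggps1, Tmem97 and Tm7sf2. Ggps1 had a log2 difference of 1.23 in set I and 0.14 in set P (set P minus set I −1.08, SE 0.23, edgeR adjusted p = 0.0162). Its knockout libraries were at 11.1 to 15.3 CPM (median 11.8) in set I and 10.5 to 12.1 CPM (median 11.3) in set P, so the ranges of the sets overlapped in the knockout and not in the wild type. Tmem97, an endoplasmic reticulum protein that binds Npc1, had −0.50 in set I and 0.07 in set P. Its wild-type libraries were at 87.1 to 156 CPM (median 139) in set I and 77.3 to 124 CPM (median 94.6) in set P, and its knockout libraries at 72.1 to 122 CPM (median 91.4) and 88.3 to 126 CPM (median 102). Tm7sf2, a sterol reductase, had −0.52 in set I and 0.06 in set P, with wild-type libraries at 158 to 264 CPM (median 209) and 136 to 157 CPM (median 156). Its knockout libraries were at 107 to 196 CPM (median 140.0) in set I and 148 to 173 CPM (median 158) in set P, and it shares 532 exon bases with Vps51 on the same strand.

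The members' differences between the sets moved with GC content, a property in which wild-type set I stood apart. Wild-type set I also stood apart in log2 transcript length, where the r averaged −0.172, against 0.000346 in wild-type set P. For length the means were 0.0564 in knockout set I and 0.0755 in knockout set P. Across the 29 genes the Pearson r of transcript GC content was 0.67 with the set P minus set I difference (Spearman rho 0.77), −0.73 with the set I effect and −0.27 with the set P effect, as a description over genes of the same libraries. For log2 transcript length the r with the set P minus set I difference was −0.34 (rho −0.41). The parts of GC content and length were not tested apart. All 12 members with GC content over 50% were more positive in set P, and 5 of the 8 members under 45% were more positive in set I. With each library's GC trend removed through offsets, the calls for a difference between the sets went from 12 and 3 to 3 and 2, and those over all genes from 14.2% and 14.8% to 8.18% and 8.3%. The 3 were Tm7sf2, Nsdhl and Hsd17b7, of which only Tm7sf2 was among the 12, and the 2 were Mylip and Stard4. The same offsets gave 5 rises and 1 fall in set P, against 3.76% and 3.84% of all genes, with Mvk joining the rises.

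**Figure D3:**
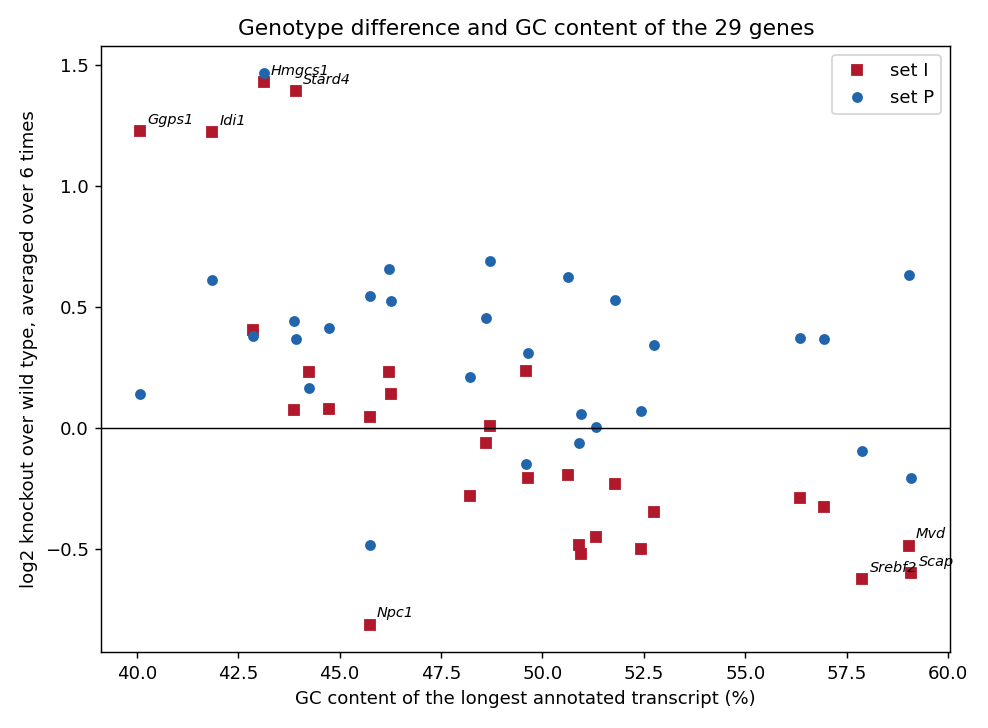
Log2 knockout over wild type of the 29 genes, averaged over 6 times, in set I (squares) and set P (circles) against the GC content of the longest annotated transcript in percent. The squares run from above 1 at low GC content to below 0 at high GC content (r of −0.73), and the circles show a weaker trend (r of −0.27).

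At single times no member was called with edgeR, against backgrounds of 1.26% at ZT04, 0.934% at ZT08, 1.85% at ZT12, 1.65% at ZT16, 3.93% at ZT20 and 0.676% at ZT24. At an unadjusted p under 0.05 there were 7, 0, 2, 3, 7 and 1 members, against 17.3%, 8.14%, 11.6%, 18.1%, 31.7% and 6.29% of all genes, and DESeq2 called 1 rise in all, Hmgcs1 at ZT20 (2.13), against a background of 7.8% at that time. With the replicate block 2 members rose at ZT20, Hmgcs1 (2.42) and Sc5d (0.79), and 2 fell, Scap (−0.73) and Ebp (−0.65), against a background of 19%. Without wild-type set P at ZT20, where the lone wild-type library of that time is assumed to vary like the other groups, there were 10 rises and 4 falls, all of them at ZT20, where 27.6% of all genes were then called higher and 24.4% lower. The median log2 difference of the 29 genes was 0.36 at ZT04, −0.31 at ZT08, 0.29 at ZT12, −0.18 at ZT16, 0.25 at ZT20 and 0.35 at ZT24. The negative medians came from set I, where 1 of 20 enzymes was higher in the knockout at ZT08 (46.3% of all genes) and 4 of 20 at ZT16 (49.2%). In set P 13 of 20 were higher at ZT08 (51.8% of all genes) and 19 or 20 of 20 at each other time (50.5% to 52.5%). The interaction of genotype and time was called for no member by edgeR or DESeq2, with none at an unadjusted p under 0.05 (6.4% of all genes) and a background of 0% in edgeR and 0.855% in DESeq2.

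The libraries of the 2 knockout sets differed over the day. Each set had a single library at each time, so an effect of time cannot be told apart from differences between single libraries. Summed over the 29 genes, knockout set I was at 7751 CPM at ZT04, 3607 at ZT08, 5122 at ZT12, 3485 at ZT16, 6609 at ZT20 and 4894 at ZT24. Knockout set P was at 6292, 5146, 6357, 5906, 6905 and 7689.8 CPM. Wild-type set I stayed between 4398 and 5474 CPM and wild-type set P between 4024 and 5007 CPM. Thus 5 of 6 knockout libraries of set P lay above the highest wild-type library of either set, while those of set I lay on both sides of the wild-type range. In knockout set I 18 of 29 genes had their highest library at ZT04 (15.5% of all genes), with 14 lowest at ZT16 (18.8%) and 10 lowest at ZT08 (16.3%). In knockout set P 17 were lowest at ZT08 (18.4%) and 14 highest at ZT24 (15.5%), and in wild-type set P 16 were lowest at ZT16 (16.6%). Each of these counts describes a single library. Many members moved together, as given below, so the genes in a count are not independent observations of a daily course.

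The enzymes moved together from library to library in the knockout. The r of each gene with the median of the other 28, on log2(CPM + 0.5), had a median of 0.88 over the 12 knockout libraries, and 17 of 29 genes exceeded 0.8, of them 16 enzymes, while 0.325% of all genes exceeded 0.8 against the members' median. The highest were Fdft1 (0.98), Acat2 (0.97), Lss (0.96) and Dhcr7 (0.96). Rdh11 was the other gene above 0.8 (0.93). The lowest values were −0.53 for Mylip, −0.36 for Npc1, −0.10 for Npc2, 0.07 for Ggps1 and 0.23 for Scap. Over 6 libraries each, 17 genes exceeded 0.8 in knockout set I, 13 in knockout set P, 7 in wild-type set P and 0 in wild-type set I, against 2.22%, 2.71%, 2.05% and 0.862% of all genes. The median r in wild-type set I was 0.0352. These values are descriptions over libraries that differ in time of day and in their GC trend.

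**Figure D4:**
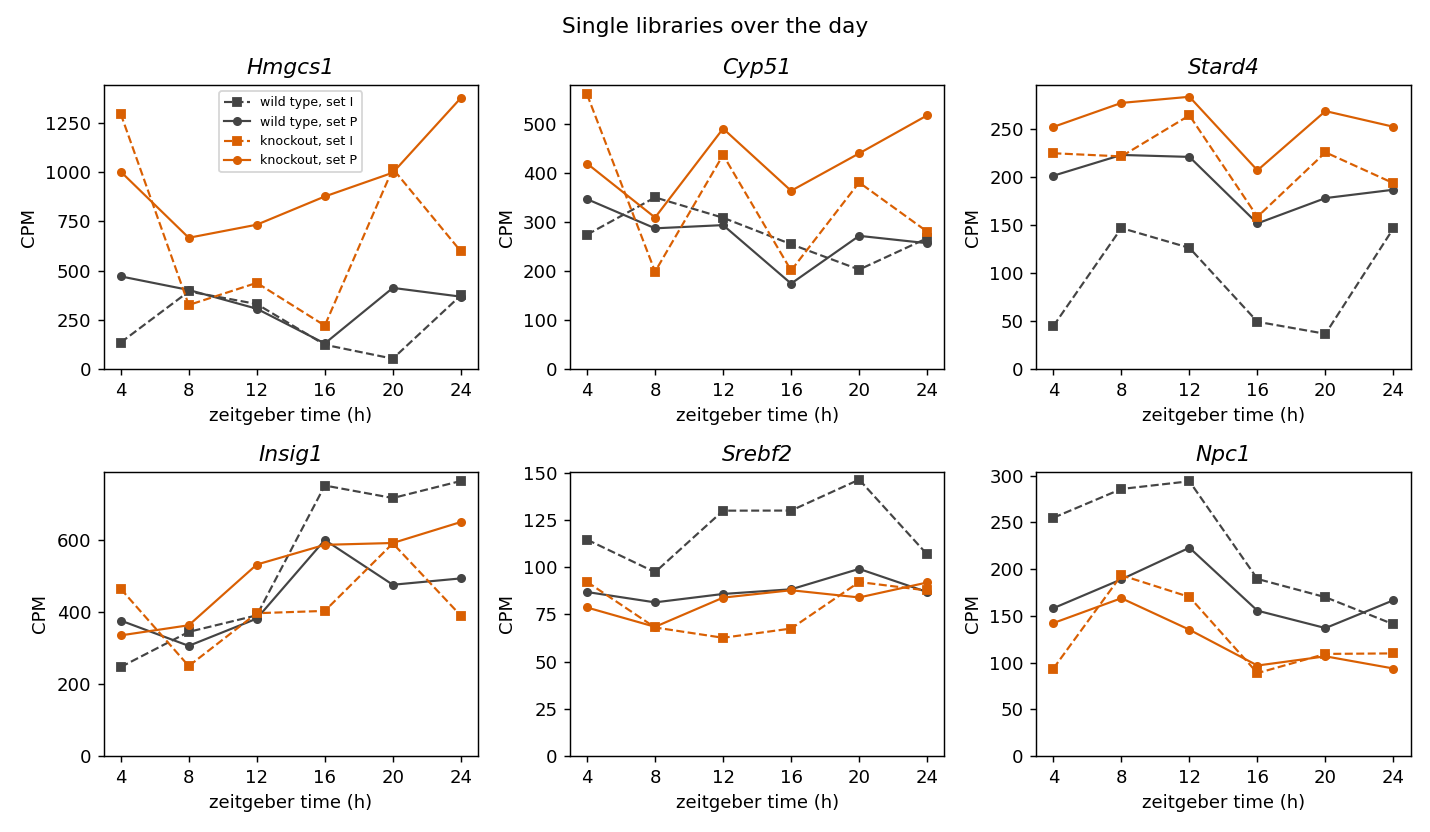
CPM of Hmgcs1, Cyp51, Stard4, Insig1, Srebf2 and Npc1 in single libraries against zeitgeber time in hours, with wild type in grey and knockout in orange, set I as dashed lines with squares and set P as solid lines with circles. Hmgcs1 in knockout set P stays above both wild-type lines at all 6 times, Npc1 in the knockout stays below the wild-type line of its own set, and Stard4 is lowest in wild-type set I.

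A 24 h rhythm was called for 1 of 29 genes in the wild type, Insig1, against 8.67% of all genes, and for 0 in the knockout, against 3.57%. At an unadjusted p under 0.05 there were 4 members in the wild type (22.5% of all genes) and 7 in the knockout (15%). DESeq2 called 3 in the wild type, Insig1, Npc1 and Nsdhl, against 12.7% of all genes, and 1 in the knockout, Npc1, against 6.59%. Insig1, which retains Scap in the endoplasmic reticulum and is itself an SREBP target, had a wild-type amplitude of 0.61 on the log2 scale with a peak at 19.3 h (edgeR adjusted p = 0.0141). It was at 376, 306, 381, 599, 475 and 493 CPM from ZT04 to ZT24 in wild-type set P and at 247, 345, 390.3, 750.0, 715 and 763 CPM in wild-type set I. In the knockout it was at 335, 363, 531, 586, 591 and 649 CPM in set P and at 464, 249.9, 396, 403, 589.7 and 389 CPM in set I. Wild-type levels were high from ZT16 to ZT24 in both sets, and the knockout showed a high night in set P and an irregular course in set I. The knockout amplitude was 0.39 with a peak at 19.6 h (edgeR adjusted p = 0.222).

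Npc1 had an amplitude of 0.40 and a peak at 9.38 h in the wild type (edgeR adjusted p = 0.052) and of 0.41 and 8.69 h in the knockout (adjusted p = 0.0731). With the replicate block both passed the test, at adjusted p = 0.0369 and 0.0457, against backgrounds of 10.9% and 4.65%, and both passed in DESeq2 (adjusted p = 0.0161 and 0.0207). Nsdhl, a demethylation enzyme, followed in the wild type with an amplitude of 0.46 and a peak at 7.06 h (edgeR adjusted p = 0.0839, DESeq2 adjusted p = 0.0439). It ran from 88.4 to 183 CPM (median 141) in wild-type set P and from 106 to 234 CPM (median 146) in wild-type set I. In the knockout it ran from 158 to 237 CPM (median 206) in set P and from 82.8 to 263 CPM (median 165) in set I. Rdh11, a retinol dehydrogenase known as an SREBP target, had an amplitude of 0.50 and a peak at 23.3 h in the knockout (edgeR adjusted p = 0.126). Its knockout libraries ran from 106 to 209.8 CPM (median 158) in set P and from 57.4 to 206 CPM (median 125) in set I, against 85.4 to 146 CPM (median 108) and 69.5 to 126 CPM (median 119) in the wild type. No difference in rhythm between genotypes was called by edgeR or DESeq2, with 1 member (Hsd17b7) at an unadjusted p under 0.05 (5.24% of all genes) and a background of 0% in edgeR and 0.152% in DESeq2. A change over time of any shape was called for no member by edgeR in the wild type (3 at an unadjusted p under 0.05 against 22% of all genes, 6.66% of all genes called) or the knockout (2 against 11.2%, 2.25% called), while DESeq2 called Insig1 and Rdh11 respectively (12.5% and 5.54% of all genes).

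Per length, levels spanned a wide range. In wild-type set P the highest mean CPM per kb of exon were Insig1 (142), Sc5d (137) and Ebp (98.7), followed by Hmgcs1 (76.1), Tmem97 (72.0), Msmo1 (62.7) and Cyp51 (61.6). The lowest were Mylip (5.06), Fdps (4.23), Lbr (3.39) and Ggps1 (2.15), with the count of Fdps subject to the shared exon bases above. In knockout set P the order at the top changed to Hmgcs1 (205), Sc5d (180.0) and Insig1 (165). Lbr and Tm7sf2 both reduce the sterol C14 double bond, and on this scale Tm7sf2 at 34.6 was well above Lbr in wild-type set P.

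**Figure D5:**
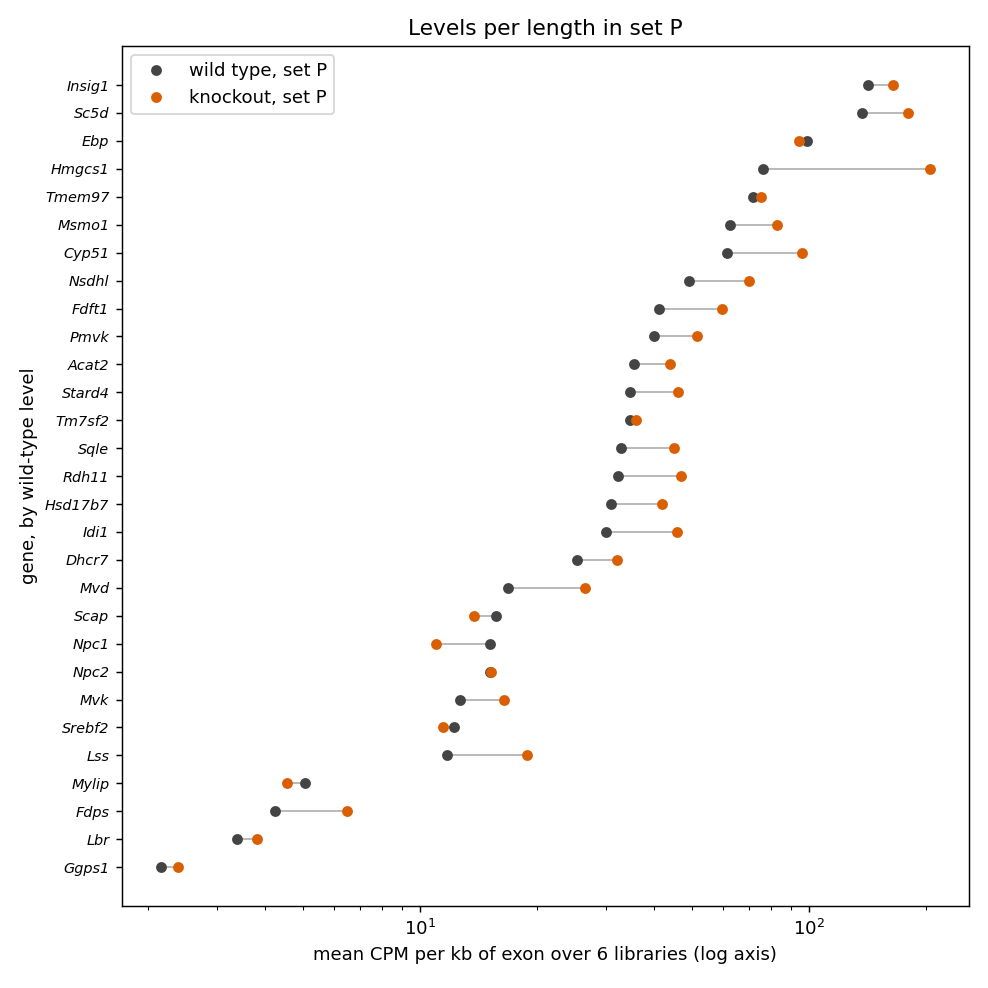
Mean CPM per kb of exon over 6 libraries in wild-type set P (grey) and knockout set P (orange) for each gene, ordered by the wild-type level, on a log axis. Hmgcs1 moves from 76.1 to 205, most enzymes move to the right, and Npc1, Scap, Srebf2, Mylip and Ebp move to the left.

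The other genes of sterol handling, a list of 30 that shares no gene with the members, gave 4 rises and 10 falls in the averaged comparison, against 12.1% and 21.1% of all genes. The rises were Cyp7a1 (1.18), the rate-limiting enzyme of bile acid synthesis, Abca1 (0.80), which exports cholesterol to apolipoproteins, Abcg5 (0.36), which exports sterols into bile, and Soat1 (0.30), which esterifies cholesterol. The smallest p were those of falls. Lipa, the lysosomal lipase that frees cholesterol from its esters, fell by 0.38 (SE 0.07, edgeR adjusted p = 0.00151). Fntb, a subunit of farnesyltransferase, fell by 0.56, Dhdds, which elongates farnesyl diphosphate toward dolichol, by 0.51, Scarb1, the HDL receptor, by 0.50 and Lipc, hepatic lipase, by 0.46. In set P 1 of the 30 was called, Abcg5 (0.50, edgeR adjusted p = 0.0156), against 6.49% of all genes, and in set I 6 rose and 12 fell, against 30% and 33.4%. The lysosomal genes Lipa and Npc1 thus both fell in the averaged comparison, and within set P the values were −0.28 for Lipa (edgeR adjusted p = 0.0508) and −0.48 for Npc1 (adjusted p = 0.0338). The lysosomal gene Npc2 was called in neither, at −0.23 averaged (edgeR adjusted p = 0.0642) and 0.004 in set P (edgeR adjusted p = 0.988). A wild-type rhythm was called for 7 of the 30 (Insig2, Srebf1, Abcg5, Abcg8, Lipa, Nceh1 and Cyp7a1), against 8.67% of all genes, and a knockout rhythm for 4 (Insig2, Abcg5, Abcg8 and Lipa), against 3.57%. Insig2 peaked at 23.7 h in the wild type and 23.4 h in the knockout, with amplitudes of 0.79 and 0.80, against 19.3 h for Insig1.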

How the data were processed

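Liver mRNA libraries (24, in 12 groups of 2) were made with a stranded kit, according to the labels' protocols. What the authors deposited is a single table of unnormalized read counts for Ensembl genes, of which all columns were used. The submitters' processing notes name STAR 2.4.0i and mm10. Counter, annotation and strand handling were not given in the sources used here, so reads shared with overlapping or antisense genes cannot be assigned: 11 members share at least 100 exon bases with another gene. Symbols were found in GENCODE M21 for 54495 of 54532 genes.

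The counts were tested in R 4.3.3 with the quasi-likelihood F-test of edgeR 4.0.16, with TMM scaling and filterByExpr by group (minimum 10 counts, 15090 genes left), Benjamini-Hochberg adjustment over all of them and a threshold of 0.05. One fit of 12 group means gave the genotype contrasts, the interaction and the changes over time. A second held a cosine and a sine of 24 h per genotype, amplitude being the log2 height above the mean. Another fit added the letter and its product with genotype. CPM values come from edgeR's cpm function on TMM-scaled library sizes. Reads carry no molecular identifiers. Code was tested on simulated data. Alternatives were RLE size factors, DESeq2 1.42.0, no filter, the letter as a replicate block, GC offsets (a spline with 5 degrees of freedom), each library left out and wild-type set I left out, with length offsets and the omission of 3 wild-type set I libraries added after seeing the data.

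The labels do not say that a letter marks a shared batch or animal. Deviations from the group means were correlated between libraries that share letter and time but not genotype. Over all 15090 genes, computed first, r was 0.184, 0.123, 0.231, 0.0705, 0.0541 and 0.0842 in time order, over the limit of 0.1 at ZT04, ZT08 and ZT12 only, and by this the letter would not count as a pairing. Over the genes with a mean log2 CPM above 1 (11333), r was 0.286, 0.203, 0.319, 0.125, 0.126 and 0.14, each over the limit. The letter was taken as a pairing from the second set of values. That gene set was chosen after the calls with the replicate block had been seen, so the choice is not independent of them, and values with the block stand only beside those of the design without it.

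The members and lists were chosen with earlier results of these data known. Given in full are the 4 members with the smallest p in the averaged contrast and the 3 smallest for each rhythm and for the letter by genotype term. Of 30 other sterol genes the 5 smallest p and, where few were called, all called are named. Some genes of the pathway are not reported here.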

Additional observations from a re-analysis of the deposited data

Results flagged for a closer look

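For 15 members the genotype effect differed between the sets by the test of the difference itself (edgeR adjusted p from 0.0162 to 0.0496). In log2 units of set P minus set I, the 12 genes more positive in set P were Mvd (1.12), Fdft1 (0.76), Pmvk (0.69), Dhcr7 (0.69), Lss (0.68), Mvk (0.66), Tm7sf2 (0.58), Tmem97 (0.57), Srebf2 (0.53), Npc2 (0.45), Ebp (0.42) and Scap (0.39). The 3 more positive in set I were Ggps1 (−1.08), Stard4 (−1.02) and Mylip (−0.39). Of the genes named, 8 are enzymes that act between mevalonate and cholesterol and are more positive in set P. What the letters of the sets stand for was not given, and for GC content the values with offsets, given in the report and below, are those at hand.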

How the results depend on the processing

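The directions of Hmgcs1, Stard4 and Npc1 in the averaged comparison, and their calls, were the same under all 10 alternatives, at 1.11 to 1.47, 0.29 to 0.88 and −1.01 to −0.47. Sc5d reversed in the averaged comparison with GC offsets (−0.037), GC offsets and replicate block (−0.019), GC and length offsets (−0.084) and these with the replicate block (−0.063), and within set I with GC offsets (−0.31) and GC and length offsets (−0.38). Hsd17b7 reversed within set I at −0.50 and −0.55 under those 2 settings. In the averaged comparison the members called higher (5) became 9 with DESeq2, 9 with no filter, 8 with the replicate block, 3 with GC offsets and 3 without wild-type set I. Those called lower (4) became 2 with GC offsets, with or without the replicate block, 1 without wild-type set I and 2 without its libraries at ZT04, ZT16 and ZT20. Averaged rises took in 15.5%, 11.7%, 25.1% and 15.5% of all genes with DESeq2, no filter, the block and GC offsets. Averaged falls took in 18.3% with GC offsets and 20.9% with these and the block. Over single times, rises (0) became 1 with DESeq2, 17 with no filter, 2 with the replicate block and 1 with GC and length offsets and the block. With no filter 2.43%, 0.603%, 0.834%, 3.55%, 6.94% and 0.564% of all genes were higher from ZT04 to ZT24. The other rises were at ZT20, where 2.84%, 6.55% and 4.2% were higher, in the order given. Falls (0) became 2 with no filter, 2 with the block, 1 with GC offsets and the block and 1 with GC and length offsets and the block. With no filter the falls were at ZT16 and ZT20 (1.45% and 3.26% of all genes lower). With the block they were at ZT20 (12.5%), with GC offsets and block at ZT16 (2.26%), and with both offsets and block at ZT20 (5.9%). The interaction (0) became 3 with no filter, against 2.08% of all genes. A change over time in the wild type (0) became 1 with DESeq2 (12.5% of all genes) and 7 with no filter (7.94%). With or without the block, it became 1 with GC offsets (15.4% and 12.7%) and 3 with GC and length offsets (16.7% and 13.4%). In the knockout (0) it became 1, 7, 1 and 1 under these settings and 2 without wild-type set I. Knockout changes took in 5.54%, 3.71%, 5.39% and 5.39% of all genes, and 6.28% and 6.48% with the offsets and the block. Wild-type rhythms (1) became 2 with RLE size factors, no filter, the block, GC and length offsets with or without the block and without the 3 libraries, 3 with DESeq2 and GC offsets with or without the block, and 0 without wild-type set I. They took in 4.34% of all genes with no filter, 10.9% with the block and 12.7% with DESeq2. GC offsets gave 13.6% (14.7% with the block) and GC and length offsets 14.1% (15.2% with the block). Knockout rhythms (0) became 1 with DESeq2, no filter, the block, GC offsets with or without it and GC and length offsets, 2 with the last and the block and without the 3 libraries, and 3 without wild-type set I. They took in 6.59% of all genes with DESeq2, 2.39% with no filter and 4.65% with the block. GC offsets gave 7.59% (8.19% with the block) and GC and length offsets 7.75% (8.67% with the block). No share is given for RLE size factors, for any count without the 3 wild-type set I libraries, or for time changes and rhythms without wild-type set I. Those counts of members are thus not set against a background and cannot be read as a result about the members. Within set P the rises (4) became 7 with DESeq2, 8 with no filter, 7 with GC and length offsets and 17 with the set fitted alone, where 6.71% of all genes were called higher, and within set I the rises (6) became 2 with the set fitted alone, where 17.8% of all genes were called higher. DESeq2, no filter and GC and length offsets called 3.7%, 1.64% and 3.98% of all genes higher within set P. For the set difference, genes more positive in set P (12) became 3 with GC offsets and 5 with GC and length offsets. Those in set I (3) became 1 with the latter. Over all genes the shares were 8.18% and 6.98% for set P and 6.16% for set I. Of the 12, only Tm7sf2 stayed called with GC offsets, and only Lss and Srebf2 with GC and length offsets. Beside the GC offsets alone, the block added the averaged rises of Mvk and Idi1 (3 to 5, all genes 15.5% to 20.4%). It also added the fall of Npc1 at ZT16. Beside the GC and length offsets it added the averaged rises of Acat2 and Idi1 (4 to 6, all genes 14.3% to 19.1%). It also added Hmgcs1 and Npc1 at ZT20 and a knockout rhythm of Pmvk. It changed no other call of a member in these fits or in the one without offsets given in the report.

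With each of the 24 libraries left out in turn, averaged rises ran from 3 to 11 and falls from 3 to 7, and rises over single times from 0 to 10 and falls from 0 to 4. The interaction, the rhythm difference and the change over time in the knockout stayed at 0, the change in the wild type ran from 0 to 2, wild-type rhythms from 1 to 3 and knockout rhythms from 0 to 2. Rises within set I ran from 5 to 7 and falls from 7 to 12, within set P from 0 to 8 and from 0 to 2, and the set difference from 0 to 14 and from 1 to 3. For these fits, shares of all genes are given only for the averaged and ZT20 counts without wild-type set P at ZT20. There the calls over all genes moved as well, so the ranges cannot be read as a property of the members. The cause of these changes was not tested. Over all genes the calls were 1827 higher and 3180 lower, 3605 and 2631 with no filter, 3794 and 4104 with the block, 2162 and 2456 with GC and length offsets, and 1528 and 1366 without wild-type set I. Depth limits the least counted member, Ggps1, most, at 2.90 CPM in its lowest library, and single times rest on 2 libraries a group.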
